A study of Mus musculus with 8 samples.

Results

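The G2 and mitosis genes are 33 mouse genes that cells switch on to enter, carry out and leave mitosis. They were taken by name, as the rows of the deposited count table whose Ensembl identifier maps to one of the 33 symbols, and all 33 were found among the table's 42687 genes. The cells were a low-immunogenic pancreatic cancer clone, a single clone, from KPCY mice, a model in which Pdx1-Cre, active in the pancreatic lineage, turns on mutant alleles of an oncogene and of Trp53, with a Rosa26YFP/YFP reporter. Their genotype is otherwise labelled WT, and all 4 groups share it. The PBS group received phosphate-buffered saline. The NTEV group received 30 µg/mL of extracellular vesicles (EVs, membrane-bound particles shed by cells) from non-activated T cells. The ATEV group received 15 µg/mL of mouse ATEVs, whose name is not spelled out in the labels and is read here as activated T cell EVs. The last group received 15 µg/mL of ATEVs first treated with Baseline-ZERO DNase, and is called DNase-treated ATEV. The NTEV dose is tied in the labels to 5 µg/mL of EV-DNA, and the 15 µg/mL ATEV dose is read here the same way. In every group the cells were harvested the day after an exposure, reseeded at the same density and exposed again, and this was repeated 8 times. RNA from the whole cell population was sequenced in 2 libraries per group, numbered 1 and 2 by their labels. The labels do not say whether the 2 came from different cultures, so every p-value reflects variation among these libraries only, and that variation may be technical.

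Mitosis is driven by Cdk1, a kinase that works only when bound to a B-type or A-type cyclin, and by the Polo-like and Aurora kinases. Kinesin motors and microtubule-binding proteins build the spindle, kinetochores attach chromosomes to it, and a checkpoint holds anaphase back until every chromosome is attached. The anaphase-promoting complex with Cdc20 then destroys the cyclins and the cell divides. Transcripts of these genes are low in G1 and high in G2 and mitosis, so their level in a bulk RNA sample moves with how many cells are in those phases and with how much of each RNA a cell holds. In bulk samples these cannot be told apart. In pancreatic cancer cells, as in other tumour cells, the set is widely used as a readout of proliferation.

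The shared timing of these genes is attributed in textbooks to short promoter elements: CCAAT boxes, bound by NF-Y, and the cell cycle homology region (CHR), bound by the DREAM complex or by B-Myb and FoxM1 with MuvB. In the RefSeq promoter table (build GRCm38.p6) 28 of the 33 genes had an entry, and shares were counted on the first window listed for each gene. The 250 bases before the start site were searched on both strands for CCAAT and for the CHR letters TTTGAA, which did not overlap in any of the windows of the 33 genes. A CCAAT was present in 22 of the 28 windows (78.6%), against 34.5% of 27025 genes with a window of the same length. At least 2 CCAAT stood in 16 of 28 (57.1%), against 10.5% of all genes. TTTGAA was present in 9 of 28 (32.1%), against 16.3%, and both motifs stood in 8 of 28 (28.6%), against 5.73%. Over all 30 windows listed for these genes, TTTGAA stood in 11 (36.7%), against 16% of all windows. Both motifs stood in 10 of the 30 (33.3%), against 5.55%. A match is a description of these letters and not of binding. The 5 windows shown here are those of the main mitotic kinase and its partner cyclin (Cdk1 and Ccnb1), of the genes with the largest and smallest difference between vesicle libraries (Top2a and Ccnb2), and of the common proliferation marker Mki67. They lie in the table's build and not in the build of the count table: Cdk1 at chr10:69352913-69353162 (minus strand), Ccnb1 at chr13:100786487-100786736 (minus strand), Top2a at chr11:99024190-99024439 (minus strand), Ccnb2 at chr9:70421555-70421804 (minus strand) and Mki67 at chr7:135716380-135716629 (minus strand). Each is written 5′ to 3′ along the gene and ends at the base before the start site, with CCAAT (or ATTGG) and TTTGAA (or TTCAAA) in capitals.
Cdk1: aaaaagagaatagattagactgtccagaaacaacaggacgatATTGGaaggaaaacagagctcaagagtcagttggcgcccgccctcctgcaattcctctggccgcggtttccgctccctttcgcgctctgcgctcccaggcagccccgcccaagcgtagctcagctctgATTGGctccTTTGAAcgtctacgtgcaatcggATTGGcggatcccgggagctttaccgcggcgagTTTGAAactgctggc
Ccnb1: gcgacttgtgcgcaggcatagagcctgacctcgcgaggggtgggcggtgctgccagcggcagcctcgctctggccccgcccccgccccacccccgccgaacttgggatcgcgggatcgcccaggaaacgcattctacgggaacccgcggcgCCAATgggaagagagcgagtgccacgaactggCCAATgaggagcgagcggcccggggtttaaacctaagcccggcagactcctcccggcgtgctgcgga
Top2a: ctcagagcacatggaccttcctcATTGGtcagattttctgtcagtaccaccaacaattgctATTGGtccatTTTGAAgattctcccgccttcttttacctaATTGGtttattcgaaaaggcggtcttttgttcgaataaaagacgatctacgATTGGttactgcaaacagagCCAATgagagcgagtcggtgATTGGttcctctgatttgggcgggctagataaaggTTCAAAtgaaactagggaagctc
Ccnb2: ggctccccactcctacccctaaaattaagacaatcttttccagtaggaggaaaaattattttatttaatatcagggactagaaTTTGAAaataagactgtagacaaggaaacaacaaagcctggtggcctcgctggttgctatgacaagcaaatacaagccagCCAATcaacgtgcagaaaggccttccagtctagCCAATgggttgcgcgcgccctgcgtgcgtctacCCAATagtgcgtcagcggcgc
Mki67: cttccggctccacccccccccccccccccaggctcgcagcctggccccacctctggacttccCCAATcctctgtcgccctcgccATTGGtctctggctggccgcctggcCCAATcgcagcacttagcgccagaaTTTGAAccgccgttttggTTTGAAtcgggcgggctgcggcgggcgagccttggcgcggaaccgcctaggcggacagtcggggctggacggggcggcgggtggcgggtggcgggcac
Cdk1 holds TTTGAA at 71 and 15 bases before the start, and Top2a at 179 and 23 bases. The Top2a window also holds 6 CCAAT, and that of Ccnb1 holds 2 CCAAT and no TTTGAA.

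Library totals ran from 34385326 to 52451398 counts, and library 1 was the larger in each of the 4 groups. Of the 42687 genes, 25199 had a count somewhere and 15197 passed the filter on low counts. All 33 genes passed it, and all are protein coding. Levels are given as CPM (counts-per-million) scaled between libraries with edgeR's TMM factors, with library 1 first and library 2 second in each group. Keratin and other epithelial markers were present as labelled: 12 of 12 reached at least 1 CPM. Of 14 T cell markers, 2 (Trac and Lck) reached 1 CPM in some library, Cd2, Cd5 and Cd8a were at 0 in every library, and Cd3d, Cd3e and Cd3g did not exceed 0.0498 CPM.

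With PBS the 33 genes were all well expressed and differed among themselves. Per kilobase of the longest annotated coding transcript, the mean level was highest for Ccna2 (129.5 CPM per kilobase), Top2a (124) and Ect2 (89.9). On that scale it was lowest for Kif4 (9.99), Cenpf (10.2) and Ttk (10.6). These ratios compare genes only roughly, since the isoforms used by these cells were not measured.

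Together the 33 genes were high in both PBS libraries and in library 1 of the ATEV group, and low in library 2 of every vesicle group. They took 0.498% and 0.543% of all counts with PBS, 0.621% and 0.337% with ATEV, 0.487% and 0.279% with NTEV, and 0.415% and 0.315% with DNase-treated ATEV. Library 1 of ATEV was the highest of the 8 for 21 of the genes and PBS library 2 for 10. The lowest library was NTEV 2 for 25 genes, DNase-treated ATEV 2 for 6 and ATEV 2 for 2. As a log2 difference from the gene's PBS mean, the median gene stood at 0.21 in ATEV library 1 and at -0.66 in ATEV library 2, so libraries of the same treatment lay on opposite sides of PBS. The same median was -0.19 and -0.96 with NTEV, and -0.44 and -0.80 with DNase-treated ATEV.

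**Figure D1:**
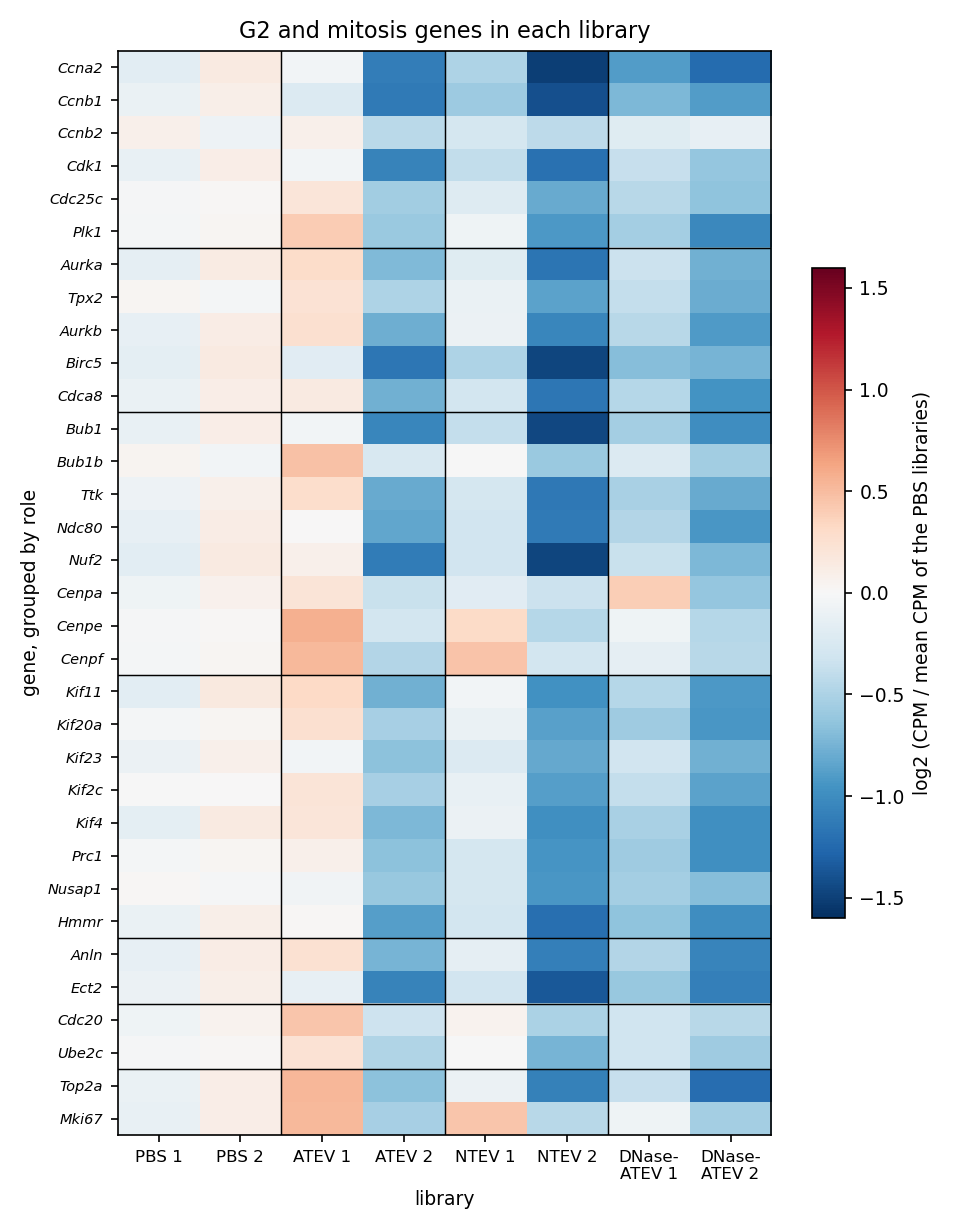
Each row is 1 of the 33 genes, grouped by role, and each column 1 library, with colour giving the log2 ratio of CPM to the gene's mean over the 2 PBS libraries. Library 2 of each vesicle group is blue for all 33 genes, while ATEV library 1 is mostly red.

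**Figure D2:**
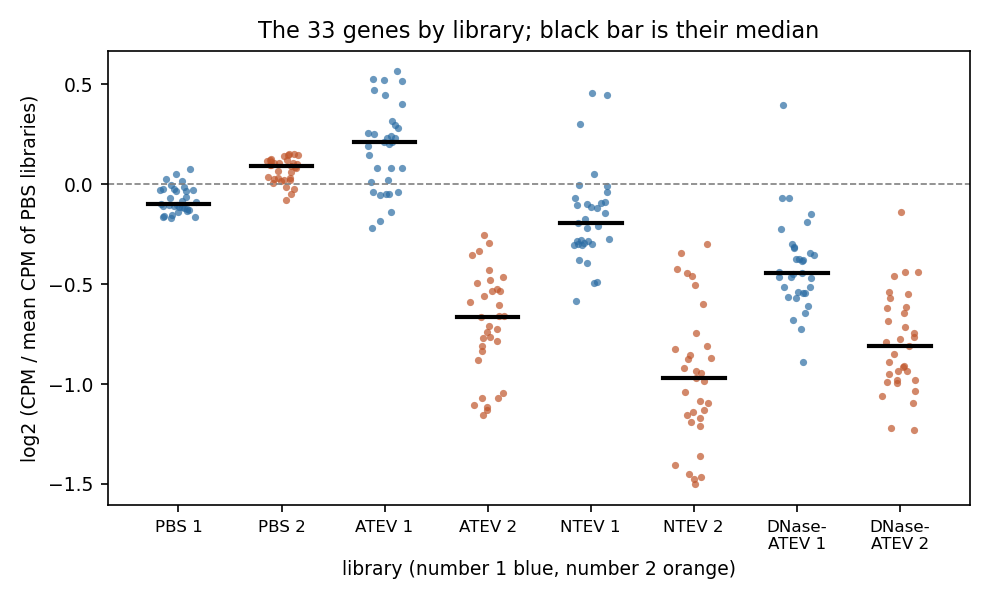
Points are the 33 genes as a log2 ratio of CPM to their PBS mean in each of the 8 libraries, blue for libraries numbered 1 and orange for those numbered 2, and the black bar is their median. The median bar is at 0.21 in ATEV 1 and -0.96 in NTEV 2, and in each vesicle group library 2 lies below library 1.

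The first question was whether the vesicles changed these genes as a group of treated cells against PBS. Ccna2, the cyclin of S phase and early mitosis, read 343 and 425 CPM with PBS, 374 and 179 with ATEV, 273 and 136 with NTEV, and 207 and 164 with DNase-treated ATEV. Its mean was 384 ± 58.0 CPM with PBS and 185 ± 30.6 CPM with DNase-treated ATEV (SD, n = 2). Ccnb1, the main cyclin of mitotic entry, read 108 and 125 CPM with PBS, 100.2 and 53.2 with ATEV, 77.9 and 44.03 with NTEV, and 70.6 and 63.02 with DNase-treated ATEV. Both libraries of NTEV and of DNase-treated ATEV lay below both PBS libraries for these 2 cyclins. In CPM, the 2 libraries of ATEV and of NTEV lay further apart than the PBS libraries, and those of DNase-treated ATEV did not. As a log2 difference of library 1 from library 2, Ccna2 stood at 0.34 with DNase-treated ATEV and at -0.31 with PBS. Prc1, which bundles microtubules of the anaphase midzone, read 151 and 158 CPM with PBS, 163 and 97.9 with ATEV, 128 and 80.5 with NTEV, and 104 and 78.5 with DNase-treated ATEV. Nusap1, a protein of spindle microtubules, read 99.5 and 97.4 CPM with PBS, 94.9 and 64.8 with ATEV, 80.9 and 51.5 with NTEV, and 67.4 and 61.2 with DNase-treated ATEV. For Nusap1 all 6 vesicle libraries lay below both PBS libraries, and for Prc1 ATEV library 1 was the exception.

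With edgeR's quasi-likelihood test on means per group over all 8 libraries, Benjamini-Hochberg adjusted over the 15197 genes at a threshold of 0.05, none of the 33 genes passed in any of the 3 comparisons with PBS, which share the 2 PBS libraries. Against PBS, ATEV had 0 of 33 called in either direction, beside 3.52% of all genes called higher and 1.66% lower. The median log2 fold change of the 33 was -0.16 with ATEV, from -0.60 for Ccnb1 to 0.20 for Cenpe, with a smallest edgeR adjusted p of 0.356. At an unadjusted p under 0.05 stood 0 of 33, beside 10.3% of all genes lower and 11.6% higher. With NTEV the count was again 0 in either direction, beside 0.704% of all genes higher and 0.408% lower, and the median was -0.49. The values ran from -0.94 for Ccnb1 (SE 0.35, edgeR unadjusted p 0.0303, adjusted p 0.219) to 0.13 for Cenpf. Ccnb1 was the 1 gene of 33 at an unadjusted p under 0.05, beside 8.85% of all genes lower and 10.3% higher. With DNase-treated ATEV the count was 0 in either direction, beside 2.16% higher and 0.855% lower, the median was -0.65 and all 33 fold changes were below 0. The largest was Ccna2 at -1.05 (SE 0.42, edgeR adjusted p 0.182). Ccna2, Prc1 and Nusap1 had an unadjusted p under 0.05, 3 of 33 beside 10.95% of all genes lower and 13.7% higher. That count is thus not above the share of all genes. The smallest difference was that of Cenpa at -0.02. The median of all genes tested was within 0.1 of 0 in each of these comparisons, and DESeq2 also called 0 of the 33 in each. Of all genes DESeq2 called 6.76% higher and 4.01% lower with ATEV, 3.82% and 2.65% with NTEV, and 7.13% and 4.47% with DNase-treated ATEV. Without the filter on low counts edgeR called Ccnb1 lower with NTEV, beside 1.12% of all genes lower. In that setting it called Ccna2 and Prc1 lower with DNase-treated ATEV, beside 1.91%. A fit on only the PBS and DNase-treated ATEV libraries called Ccnb1 and Ccna2 lower, beside 1.44% of all genes.

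Counting order alone, both ATEV libraries lay below both PBS libraries for 4 of 33 genes (Ccnb1, Birc5, Nusap1 and Ect2), beside 27.3% of all genes. Both NTEV libraries did so for 23 of 33, beside 30.9% of all genes. For DNase-treated ATEV it was 31 of 33, all but Mki67 and Cenpa, beside 30.9%. The shares of the 33 thus lay above that of all genes for NTEV and DNase-treated ATEV and below it for ATEV, and these differences in share were not tested.

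The groups with vesicles were also compared with each other. ATEV against NTEV compares vesicles named for T cells of different activation, given at 15 and 30 µg/mL, so source and dose cannot be told apart. There 0 of 33 passed in either direction, beside 1.05% of all genes higher and 0.145% lower. The median was 0.32 and 32 of 33 genes stood higher with ATEV, led by Top2a at 0.56, with a smallest edgeR adjusted p of 0.951. At an unadjusted p under 0.05 stood 0 of 33, beside 3.84% of all genes lower and 4.40% higher. Both ATEV libraries lay above both NTEV libraries for 0 of 33 genes, beside 13.7% of all genes. DNase-treated against untreated ATEV asks whether removing DNA accessible to the enzyme mattered, and 0 of 33 passed, beside 0.0855% of all genes higher and 0.579% lower. The median was -0.44 and the smallest edgeR adjusted p 0.522, with Top2a at -0.79 the largest difference. An unadjusted p under 0.05 was reached by 0 of 33, beside 4.97% of all genes lower and 6.38% higher. Only for Kif20a were both DNase-treated libraries below both untreated ones, 1 of 33 beside 16.8% of all genes. DNase-treated ATEV against NTEV gave 0 of 33 in either direction, beside 0.0461% higher and 0.00658% lower. There the median was -0.11, and 0 of 33 were at an unadjusted p under 0.05, beside 4.16% of all genes lower and 5.86% higher. Ccnb2 alone had both libraries above both NTEV libraries, 1 of 33 beside 20.3% of all genes. DESeq2 called 0 of the 33 in these comparisons as well. Of all genes it called 2.18% higher and 0.961% lower for ATEV against NTEV, and 1.07% and 1.68% for DNase-treated against untreated ATEV. For DNase-treated ATEV against NTEV the shares were 0.915% and 0.388%. A fit on the 6 vesicle libraries with the number as a replicate block was added after the data were seen. It called Top2a higher with ATEV than with NTEV (edgeR adjusted p 0.0255). That is 1 of 33, not above the 3.83% of all genes called higher. It also called 8 of 33 lower with DNase-treated than with untreated ATEV, beside 6.43% of all genes: Plk1, Bub1b, Top2a, Kif20a, Kif2c, Tpx2, Prc1 and Anln (smallest edgeR adjusted p 0.00981). For DNase-treated ATEV against NTEV it called 0 (smallest edgeR adjusted p 0.165), beside 3.08% of all genes higher and 2.25% lower.

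Comparing libraries of the same number changed several of these values. For ATEV against PBS the median of the 33 was 0.25 between libraries numbered 1, where 29 genes were higher with ATEV, and -0.76 between libraries numbered 2, where all 33 were lower. For NTEV against PBS it was -0.13 and -1.12, and for DNase-treated ATEV against PBS -0.34 and -0.89. The ATEV against NTEV median was 0.35 between libraries 1 and 0.30 between libraries 2, the pair of values closest to each other. DNase-treated against untreated ATEV gave -0.63 and -0.11, and DNase-treated ATEV against NTEV -0.27 and 0.13. These are single libraries against single libraries and carry no test. The pooled SD of the medians between libraries of a group was 0.44, as large as or larger than the group medians except those of NTEV and DNase-treated ATEV against PBS. An exact permutation test of 2 libraries against 2 cannot give a p below 0.333. Leaving out ATEV library 2 turned the ATEV against PBS median from -0.16 to 0.21, and leaving out ATEV library 1 moved it to -0.62. Leaving out NTEV library 1 moved the NTEV against PBS median from -0.49 to -0.93, and leaving out NTEV library 2 moved it to -0.19. For DNase-treated ATEV against PBS the median without DNase-treated ATEV library 2 was -0.43. The other comparisons moved as far: without ATEV library 1 the ATEV against NTEV median was -0.15 and that of DNase-treated against untreated ATEV 0.060, and without NTEV library 2 the first was -0.02. The DNase-treated ATEV against NTEV median was 0.30 without NTEV library 1 and 0.04 without DNase-treated ATEV library 2. It was -0.44 without NTEV library 2 and -0.29 without DNase-treated ATEV library 1.

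**Figure D3:**
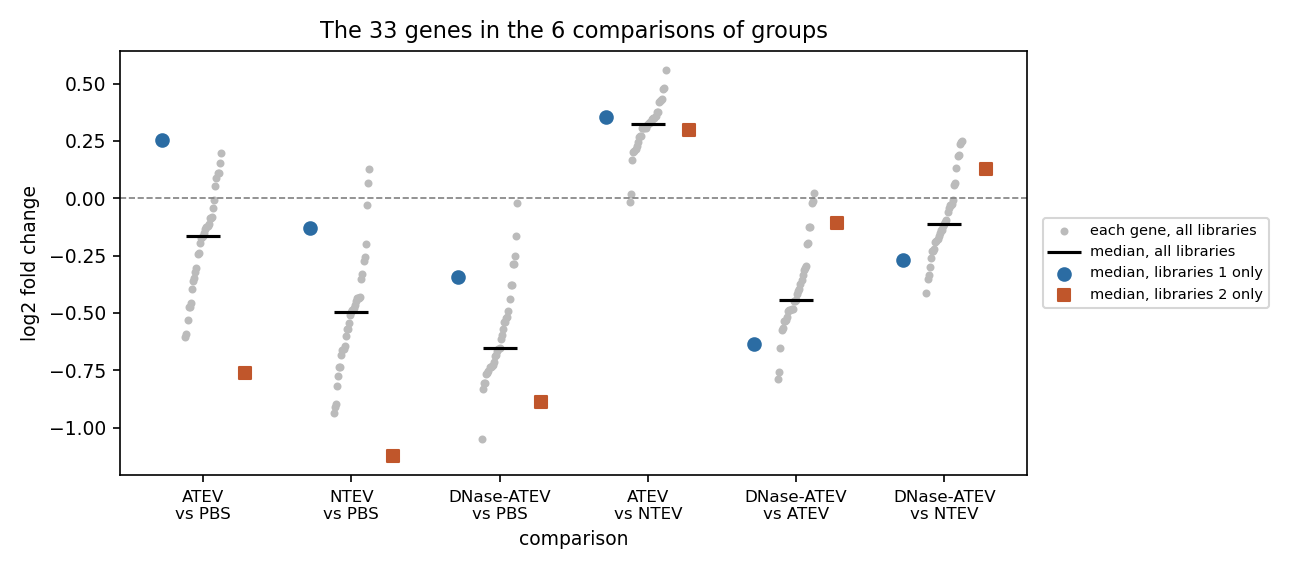
Gray points are log2 fold changes of the 33 genes in the 6 comparisons of groups, with their median as a black bar, and coloured markers are the medians when only libraries numbered 1 (blue circle) or 2 (orange square) are compared. For ATEV against PBS the marker is at 0.25 for libraries 1 and -0.76 for libraries 2.

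The genes were then compared between vesicle libraries numbered 1 and 2. Top2a, the topoisomerase that untangles DNA before chromosomes separate, read 598 and 692 CPM with PBS, 929.8 and 408 with ATEV, 604 and 304 with NTEV, and 498 and 277 with DNase-treated ATEV. Library 1 was 2.28 times library 2 with ATEV, 1.98 times with NTEV and 1.80 times with DNase-treated ATEV, while PBS library 2 was above PBS library 1. Ccnb2, another B-type cyclin, read 103 and 92.2 CPM with PBS, 103 and 72.2 with ATEV, 79.9 and 72.5 with NTEV, and 85.3 and 88.5 with DNase-treated ATEV. Its vesicle libraries overlapped between the numbers, and with DNase-treated ATEV library 2 was the higher.

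Because the labels give no meaning to the number and the split came from an earlier look at these data, the calls that follow describe these libraries. In a fit on the 6 vesicle libraries with the group means and a term for the number, edgeR called 32 of 33 genes lower in libraries 2 and 0 higher, beside 18.9% of 14875 genes tested lower and 15.9% higher. The median log2 fold change of the 33 was -0.69, where the 5th percentile of all genes was -0.72 and the median of all genes lay within 0.1 of 0. Top2a had the largest at -1.01 (SE 0.087, edgeR adjusted p 0.000583), followed by Nuf2 at -0.91. Nusap1 at -0.45 and Cdc20 at -0.49 were the smallest called. Ccnb2 at -0.20 (SE 0.11, edgeR adjusted p 0.192) was the gene that did not pass. Library 1 was above library 2 in each of the 3 vesicle groups for 32 of 33 genes, beside 32.1% of all genes. Every vesicle library 2 was below every vesicle library 1 for 31 of 33, all but Ccnb2 and Kif20a, beside 19.5% of all genes. All 3 vesicle libraries 2 were below both PBS libraries for 33 of 33, beside 31.5%. As a single value, 3 pairs cannot give an exact two-sided sign permutation p below 0.25.

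**Figure D4:**
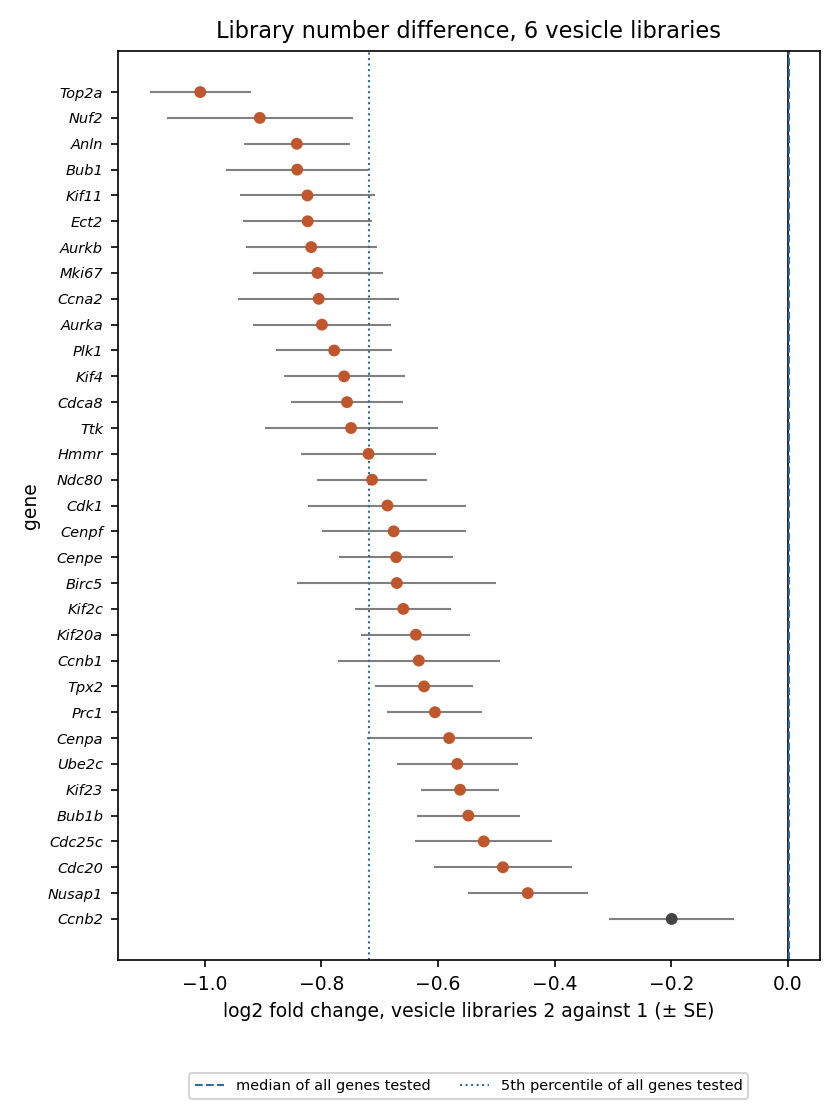
Points are the log2 fold changes of the 33 genes between vesicle libraries numbered 2 and 1, with bars of ± 1 SE, orange where the edgeR adjusted p is under 0.05 and gray where it is not. The dashed line is the median of all genes tested and the dotted line their 5th percentile at -0.72, and the genes run from -1.01 for Top2a to -0.20 for Ccnb2.

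The size of the number difference varied between groups. The median of library 1 over library 2 was 1.88-fold with ATEV, 1.78-fold with NTEV and 1.33-fold with DNase-treated ATEV. With ATEV 10 genes differed by over 2-fold, with NTEV 4 and with DNase-treated ATEV 1, while 4.44%, 2.9% and 2.3% of all genes did so in that direction. The single gene with DNase-treated ATEV was Cenpa, the histone variant that marks centromeres, which read 94.1 and 104 CPM with PBS, 114 and 77.3 with ATEV, 87.5 and 77.8 with NTEV, and 130.1 and 64.5 with DNase-treated ATEV. Its highest library was thus DNase-treated ATEV 1, unlike all the others. With PBS library 2 was the higher for 29 of 33 genes, where library 1 was the higher for 47.6% of all genes, with a median of 0.876-fold for library 1 over library 2 and 0 genes over 2-fold. Library totals were larger for library 1 in all 4 groups, PBS included, and the part of depth in the difference was not tested.

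The number difference with PBS was set against that with vesicles by an interaction term over all 8 libraries. The term was added because the opposite order with PBS had been seen in these values, and its PBS arm is 1 library against 1 with no replicate of its own, so its calls describe these libraries. The difference of library 2 against library 1 was higher with PBS than with vesicles for 20 of 33 genes by edgeR, beside 10.5% of all genes higher and 7.51% lower, and for 0 genes lower. The median difference was 0.91 on the log2 scale, and all 33 values were above 0. The largest values were those of Nuf2 and Top2a, both 1.22, and Top2a had an SE of 0.17 and an edgeR adjusted p of 0.00701. The lowest was Ccnb2 at 0.05 (SE 0.21, edgeR adjusted p 0.915). Fitted over all 8 libraries with 1 number term, PBS included, edgeR called 0 of the 33 genes, with a smallest adjusted p of 0.291. That fit called hardly any gene at all, with 1 of 15197 higher and 0 lower.

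By role, the cyclins and kinases of mitotic entry came first. Cdk1, the kinase itself, read 189 and 221 CPM with PBS, 198 and 97.7 with ATEV, 156 and 90.1 with NTEV, and 158 and 133 with DNase-treated ATEV. Plk1, the Polo-like kinase that switches Cdk1 on and matures centrosomes, read 121 and 127 CPM with PBS, 164 and 82.3 with ATEV, 118 and 65.5 with NTEV, and 85.1 and 60.5 with DNase-treated ATEV. Cdc25c, the phosphatase that removes the inhibiting phosphates from Cdk1, read 30.96 and 31.97 CPM with PBS, 36.1 and 21.3 with ATEV, 27.2 and 17.97 with NTEV, and 23.2 and 20.2 with DNase-treated ATEV. For Cdk1 ATEV library 1 lay between the PBS libraries and the other vesicle libraries lay below both, and for Plk1 the lowest library was DNase-treated ATEV 2. The log2 fold changes of vesicle libraries 2 against 1 were -0.69 for Cdk1, -0.78 for Plk1, -0.52 for Cdc25c, -0.80 for Ccna2 and -0.63 for Ccnb1, all called by edgeR.

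The Aurora kinases act at the spindle poles (Aurka) and at centromeres and the midzone (Aurkb). Aurka read 87.5 and 105 CPM with PBS, 118 and 58.8 with ATEV, 84.1 and 42.8 with NTEV, and 75.7 and 56.7 with DNase-treated ATEV. Tpx2, which activates Aurka on the spindle, read 220.3 and 212 CPM with PBS, 254 and 154 with ATEV, 200.2 and 119.8 with NTEV, and 166 and 125 with DNase-treated ATEV. Both were lowest in NTEV library 2 and highest in ATEV library 1. Aurkb read 86.8 and 104 CPM with PBS, 114 and 55.3 with ATEV, 88.9 and 46.3 with NTEV, and 70.04 and 50.6 with DNase-treated ATEV. Birc5 (survivin) and Cdca8 (borealin) are its partners in the chromosomal passenger complex. Birc5 read 127 and 157 CPM with PBS, 125 and 63.6 with ATEV, 101 and 51.4 with NTEV, and 88.4 and 84.4 with DNase-treated ATEV. Cdca8 read 70.8 and 82.2 CPM with PBS, 84.7 and 44.9 with ATEV, 62.4 and 34.3 with NTEV, and 55.5 and 39.6 with DNase-treated ATEV. For Birc5 the 2 DNase-treated libraries differed little from each other, and all 6 vesicle libraries were below both PBS libraries. The 5 genes were called lower in vesicle libraries 2 against 1, with log2 fold changes from -0.62 to -0.82, and under DESeq2 the difference of Birc5 did not pass.

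Bub1, Bub1b and Ttk are the kinases and scaffold of the spindle checkpoint. Bub1 read 87.3 and 102 CPM with PBS, 92.02 and 45.9 with ATEV, 72.7 and 34.6 with NTEV, and 64.9 and 47.5 with DNase-treated ATEV. Bub1b read 195 and 182 CPM with PBS, 261 and 158 with ATEV, 187 and 124 with NTEV, and 161 and 129 with DNase-treated ATEV. Ttk, which starts checkpoint signalling, read 28.6 and 32.1 CPM with PBS, 36.9 and 17.3 with ATEV, 24.96 and 13.8 with NTEV, and 21.2 and 17.3 with DNase-treated ATEV. For Bub1b the PBS libraries lay in the opposite order to that of Bub1 and Ttk, and ATEV library 1 was above both. Ndc80 and Nuf2 are the pair of subunits that grip the microtubule. Ndc80 read 53.4 and 63.1 CPM with PBS, 58.7 and 32.7 with ATEV, 47.3 and 26.6 with NTEV, and 42.02 and 30.4 with DNase-treated ATEV. Nuf2 read 49.1 and 61.1 CPM with PBS, 58.2 and 25.5 with ATEV, 44.5 and 19.8 with NTEV, and 43.1 and 33.6 with DNase-treated ATEV. Nuf2 had over 2-fold differences between the libraries of ATEV and of NTEV. The motor Cenpe, which moves chromosomes to the spindle equator, and the kinetochore protein Cenpf are long transcripts. Cenpe read 152 and 155 CPM with PBS, 227 and 125 with ATEV, 189.5 and 112 with NTEV, and 146 and 112 with DNase-treated ATEV. Cenpf read 111 and 116 CPM with PBS, 162 and 82.03 with ATEV, 155 and 92.2 with NTEV, and 102 and 83.6 with DNase-treated ATEV. In both, ATEV 1 and NTEV 1 exceeded both PBS libraries. All 8 checkpoint and kinetochore genes, Cenpa included, were called lower in vesicle libraries 2, from -0.91 for Nuf2 to -0.55 for Bub1b.

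Kinesins and their partners shape the spindle. Kif11, which slides spindle poles apart, read 148 and 185 CPM with PBS, 207 and 97.9 with ATEV, 162 and 84.9 with NTEV, and 122 and 88.4 with DNase-treated ATEV. Kif2c, which takes apart microtubule ends, read 61.9 and 62.2 CPM with PBS, 71.9 and 42.8 with ATEV, 57.2 and 33.8 with NTEV, and 47.7 and 34.4 with DNase-treated ATEV. Kif4, a chromosome-bound motor, read 44.7 and 54.9 CPM with PBS, 56.8 and 30.1 with ATEV, 46.9 and 25.1 with NTEV, and 34.9 and 25.3 with DNase-treated ATEV. These 3 motors were highest in ATEV library 1. Kif20a and Kif23 act at the midzone in cell division. Kif20a read 212 and 219.7 CPM with PBS, 257 and 149.8 with ATEV, 200.5 and 118 with NTEV, and 146 and 113 with DNase-treated ATEV. Kif23 read 188 and 212 CPM with PBS, 194 and 127 with ATEV, 172 and 113 with NTEV, and 162 and 117 with DNase-treated ATEV. For Kif20a the NTEV 1 library exceeded all vesicle libraries 2, but DNase-treated ATEV 1 was below ATEV 2. Hmmr, a spindle-associated protein, read 115 and 133 CPM with PBS, 126 and 67.4 with ATEV, 101 and 53.6 with NTEV, and 79.4 and 62.5 with DNase-treated ATEV. With Prc1 and Nusap1, the 8 genes of this role were each called lower in vesicle libraries 2, from -0.82 for Kif11 to -0.45 for Nusap1.

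Cytokinesis needs Anln, which anchors the contractile ring, and Ect2, which acts at the cell equator. Anln read 298 and 353 CPM with PBS, 384 and 195 with ATEV, 294 and 152 with NTEV, and 236 and 156 with DNase-treated ATEV. Ect2 read 343 and 392 CPM with PBS, 334 and 175 with ATEV, 297 and 143 with NTEV, and 241 and 172 with DNase-treated ATEV. Ect2 lay below both PBS libraries in all 6 vesicle libraries, and Anln in all except ATEV 1. Cdc20 turns on the anaphase-promoting complex, and Ube2c is the ubiquitin-conjugating enzyme of that complex. Cdc20 read 132 and 144 CPM with PBS, 188 and 109 with ATEV, 143 and 97.3 with NTEV, and 111 and 102 with DNase-treated ATEV. Ube2c read 162 and 167 CPM with PBS, 193 and 118 with ATEV, 164 and 98.1 with NTEV, and 132 and 111 with DNase-treated ATEV. In both, ATEV library 1 was above both PBS libraries and the DNase-treated libraries were below both. Mki67, the protein behind the Ki-67 proliferation stain, coats chromosomes and read 267 and 314 CPM with PBS, 416 and 201 with ATEV, 396 and 213 with NTEV, and 277 and 199.5 with DNase-treated ATEV. Its ATEV 1 and NTEV 1 libraries were above both PBS libraries, and its 3 vesicle libraries 2 were close to each other. The log2 fold changes of vesicle libraries 2 against 1 were -0.84 for Anln, -0.82 for Ect2, -0.49 for Cdc20, -0.57 for Ube2c and -0.81 for Mki67, all called by edgeR.

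Other genes of the same machinery, none of them among the 33, were read from the same fits. In vesicle libraries 2 against 1, 35 of 40 further checkpoint and kinetochore genes were called lower and 0 higher, among them Cenpq, Kntc1, Mad1l1 and Incenp. Of 31 genes of the spindle, midzone and cytokinesis 25 were lower and 0 higher, including Plk4, the kinase of centriole duplication, and Espl1, the protease that cuts cohesin. Condensin and cohesin had 16 of 18 lower and 0 higher, with Smc2, a condensin ATPase, at -0.95. Genes of mitotic entry and Cdk1 control had 13 of 19 lower and 0 higher, with Melk at -0.88. The anaphase-promoting complex had 9 of 16 lower and 0 higher, and Fbxo5, its inhibitor, stood at -1.20. All of these shares are read beside the 18.9% lower and 15.9% higher of all genes given above. In the comparisons of groups 2 genes of all these lists together passed. Of all genes, 1.66% were called lower with ATEV and 2.16% higher with DNase-treated ATEV against PBS. Arpp19, whose phosphorylated form inhibits the phosphatase that opposes Cdk1, was lower with ATEV than with PBS (log2 -0.64, SE 0.14, edgeR adjusted p 0.0441), and read 105 and 111 CPM with PBS, 73.8 and 65.1 with ATEV, 79.3 and 67.7 with NTEV, and 80.6 and 84.9 with DNase-treated ATEV. Anapc11, the RING subunit of the anaphase-promoting complex, was higher with DNase-treated ATEV than with PBS (log2 0.72, SE 0.14, edgeR adjusted p 0.0465), and read 55.5 and 64.2 CPM with PBS, 76.8 and 68.8 with ATEV, 67.3 and 67.2 with NTEV, and 91.8 and 105 with DNase-treated ATEV. Neither passed in vesicle libraries 2 against 1.

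Of the regulators that control transcription of mitotic genes, 17 of 23 were lower in vesicle libraries 2 and 1, Rbl2, was higher. Foxm1, an activator of G2 genes, read 138 and 164 CPM with PBS, 217 and 94.5 with ATEV, 149 and 74.7 with NTEV, and 119.8 and 91.1 with DNase-treated ATEV. Mybl2 (B-Myb), which acts with MuvB, read 43.98 and 64.3 CPM with PBS, 77.2 and 25.5 with ATEV, 50.02 and 15.6 with NTEV, and 40.8 and 20.9 with DNase-treated ATEV. Foxm1 stood at -0.87 (SE 0.14, edgeR adjusted p 0.00354) and Mybl2 at -1.42 (SE 0.14, edgeR adjusted p 0.000762) in vesicle libraries 2 against 1. E2f7 and E2f8, repressors that are E2F targets themselves, also passed at -1.27 and -1.32. Both Foxm1 and Mybl2 were higher in PBS library 2 than in PBS library 1, the reverse of each vesicle group.

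Inhibitors of Cdk and cyclins of G1 did not move one way: of 18 tested, 4 were lower and 6 higher. Cdkn1a (p21), an inhibitor of cyclin-Cdk complexes, read 9.89 and 19.3 CPM with PBS, 7.79 and 14.2 with ATEV, 9.30 and 19.3 with NTEV, and 8.98 and 18.3 with DNase-treated ATEV. Cdkn1b (p27), a related inhibitor, read 77.2 and 71.7 CPM with PBS, 65.9 and 81.1 with ATEV, 60.9 and 83.6 with NTEV, and 67.4 and 105 with DNase-treated ATEV. Cdkn1a rose by 0.98 (edgeR adjusted p 0.00085) and Cdkn1b by 0.47 (edgeR adjusted p 0.00473) on the log2 scale in vesicle libraries 2 against 1. Cdkn1a was also higher in PBS library 2, and its interaction with PBS was -0.02 (SE 0.20, edgeR adjusted p 0.962). Ccne2, a cyclin of the G1 to S transition, read 14.9 and 24.7 CPM with PBS, 10.9 and 2.37 with ATEV, 8.56 and 1.87 with NTEV, and 14.2 and 2.99 with DNase-treated ATEV. Its log2 fold change was -2.22 (edgeR adjusted p 0.000356) and that of Ccne1 was -1.34, while the antiproliferative gene Btg2 rose by 1.99. Genes of DNA replication, the step before G2, were lower in 38 of 38, with a median of -0.94, a larger fall than the -0.69 of the 33, and with Mcm3 at -1.31. None of these regulators or replication genes passed in a comparison of groups.

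**Figure D5:**
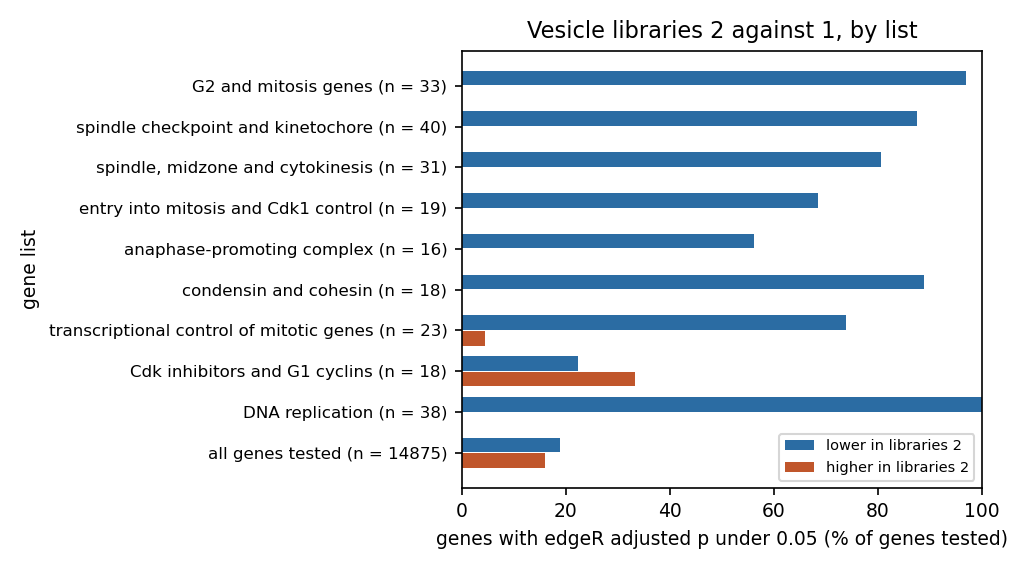
Bars give the percent of tested genes in each list with an edgeR adjusted p under 0.05 in vesicle libraries 2 against 1, blue for lower and orange for higher in libraries 2, with the number tested in brackets. The 33 genes and the lists of mitosis and replication have long blue bars, while all 14875 genes stand at 18.9% lower and 15.9% higher.

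Other measures moved along with the number. Summed epithelial markers ran from 9036 to 12154 CPM and were higher in library 2 than in library 1 of each vesicle group and lower in library 2 of PBS, and Epcam, Onecut2, Cldn4 and Krt19 of the 12 passed as higher in vesicle libraries 2. Summed markers of fibroblasts and endothelium ran from 3.15 to 11.2 CPM, with 3 of 10 reaching 1 CPM and Dcn and Lum at 0 throughout. These sums were higher in vesicle libraries 2, where Col1a1 and Col3a1 passed among 4 tested. Summed T cell markers ran from 6.17 to 11.6 CPM, and Lck, of 2 tested, passed as lower in vesicle libraries 2. Summed myeloid and B cell markers ran from 2.49 to 6.10 CPM, with Cd68 alone of the 9 reaching 1 CPM. Beside these calls, 15.9% of all genes were called higher and 18.9% lower in vesicle libraries 2. The part of these marker differences in the values of the 33 genes was not tested.

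Transcript GC content also moved with the comparisons with PBS. Across 12722 coding genes the Spearman rank correlation of the log2 fold change with GC content was 0.37 for ATEV, 0.38 for NTEV and 0.31 for DNase-treated ATEV against PBS, and across 12656 genes it was 0.16 for vesicle libraries 2 against 1. Genes are not independent replicates, and these values are a description. The median GC content was 47.4% for the 33 genes, from 40.7% to 57.7%, and 51.0% for coding genes. With an offset for GC content edgeR called 32 of 33 lower in vesicle libraries 2. Beside these, 25.4% of the 12656 genes were called lower and 15.7% higher. In the comparisons of groups 0 of 33 were called with the offset. Of all genes at most 1.64% were called higher there (ATEV against PBS) and at most 0.621% lower (DNase-treated against untreated ATEV).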

How the data were processed

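Stranded mRNA libraries, 2 in each of 4 groups, were made from total RNA, per the labels' protocols. Tools named without a role in the submitters' processing notes are Cufflinks 2.1.1, TopHat, TopHat2 2.0.11 and bcl2fastq 2.19, and the build is mm9. For the counter, its annotation and its use of strand, the sources used here give nothing, so values of overlapping genes are uncertain. The values are whole-number counts per Ensembl gene, as deposited by the authors. Gene classes, lengths and GC content came from GENCODE M21. Symbols came from a list of gene names, which gave a symbol for 42250 of 42687 identifiers. No coordinates were taken from either, and promoter windows came from the RefSeq table alone.

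Genes were filtered with edgeR 4.0.16 (R 4.3.3) by group, scaled by TMM and tested with the quasi-likelihood test with a mean per group, which leaves 4 residual degrees of freedom. The fit of the library number on the 6 vesicle libraries and the interaction fit each leave 2. Log2 CPM used a prior count of 2. Each SE of a log2 fold change was derived from the test and is approximate. It is the absolute log2 fold change divided by the square root of the quasi-likelihood F. Two-sided p-values were adjusted over all genes of a comparison by Benjamini-Hochberg, and 0.05 was the threshold. Alternatives were DESeq2 1.42.0, its size factors, no filter, protein-coding genes only, only the groups compared, a GC offset, a replicate block and leaving out each library. The tests were checked on simulated data. Those counts were drawn independently for each library and with less spread than these data have. The check therefore does not cover the shared deviations of same-numbered vesicle libraries. Replicates differed by more than sampling noise in every group (chi-square per gene from 39.0 to 145).

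The 33 genes, the other gene lists and the split by number were chosen with earlier results of these data known. By rule, values in every library were given for genes past the threshold in any comparison and for Ccnb1, Ccna2, Cdk1, Plk1, Aurka, Aurkb, Top2a, Mki67, Birc5 and Cdc20, with up to 4 called genes from each other list and always Foxm1, Mybl2, Cdkn1a and Cdkn1b. Ccnb2 and Rbl2 were named after their values were seen.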

Additional observations from a re-analysis of the deposited data

Results flagged for a closer look

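By edgeR's interaction term the difference between libraries 2 and 1 was higher with PBS than with vesicles for 20 of the 33 genes. Of all genes, 10.5% were called higher and 7.51% lower by the same term. The term was fitted because the opposite order with PBS had been seen in these values, and with PBS it rests on 1 library against 1, so it is a description of these libraries. For Top2a the difference of the 2 effects was 1.22 on the log2 scale, with PBS library 2 above PBS library 1 and the reverse in each vesicle group. The labels give no meaning to the library number, and what it stands for was not tested.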

How the results depend on the processing

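The call of 32 genes lower in vesicle libraries 2 was the same count under other size factors, no filter on low counts, a GC offset, protein-coding genes only and with any 1 vesicle group's pair left out. The share of all genes called lower in these settings ran from 11.4% with no filter to 25.4% with the GC offset. DESeq2 called 31, and the number term over all 8 libraries called 0. In the comparisons of groups without a replicate block, 0 genes were called except in 2 settings. Against PBS, no filter gave 1 lower for NTEV and 2 lower for DNase-treated ATEV, beside 1.12% and 1.91% of all genes lower. A fit of only DNase-treated ATEV and PBS gave 2 lower, beside 1.44% of all genes. The largest shares of all genes without a block were those of DESeq2 for DNase-treated ATEV against PBS, 7.13% higher and 4.47% lower. Leaving out single libraries (the lone library is then assumed to vary like the other groups) gave medians from -0.62 to 0.21 for ATEV against PBS. The medians ran from -0.93 to -0.19 for NTEV and from -0.77 to -0.43 for DNase-treated ATEV against PBS. For ATEV against NTEV they ran from -0.15 to 0.77, and for DNase-treated against untreated ATEV from -0.82 to 0.060. For DNase-treated ATEV against NTEV they ran from -0.44 to 0.30.

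With the number as a replicate block over all 8 libraries, 0 of the 33 genes were called in any of the 6 comparisons of groups. The smallest edgeR adjusted p was 0.0613, for DNase-treated ATEV against PBS. Of all genes, 4.92% were called higher and 2.86% lower for ATEV against PBS. The shares were 1.41% and 0.757% for NTEV, and 4.43% and 2.49% for DNase-treated ATEV. They were 1.31% and 0.368% for ATEV against NTEV, and 0.145% and 0.691% for DNase-treated against untreated ATEV. For DNase-treated ATEV against NTEV they were 0.125% and 0.0329%. Deviations from the group means correlated between same-numbered vesicle libraries at 0.53, 0.55 and 0.49, and between PBS and vesicle libraries at -0.18, -0.24 and -0.14. Vesicle libraries of the same number thus deviated together and PBS libraries did not join them, and the labels give no pairing. A replicate block on the vesicle libraries alone was added after the data were seen. It called 1 gene higher for ATEV against NTEV, beside 3.83% of all genes. For DNase-treated against untreated ATEV it called 8 lower, beside 6.43%. A crossed replicate block, also added then, exchanged the PBS numbers, whose opposite order had already been seen in these values. Against PBS it called 1 gene lower for ATEV, 15 for NTEV and 20 for DNase-treated ATEV. The shares of all genes called lower there were 10.7%, 12.3% and 14.8%. Because of that choice, these calls describe these libraries. Over all genes, DESeq2 called 1027 higher and 610 lower for ATEV against PBS, where edgeR called 535 and 253, and protein-coding genes alone gave 292 and 79. For NTEV against PBS edgeR called 107 higher and 62 lower and with the GC offset 0 and 1, and for DNase-treated ATEV against PBS 328 and 130 became 19 and 4.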
